A study of Mus musculus with 8 samples.

Results

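The proteasome genes of hepatocellular carcinomas (HCC) of mice without miR-122 were compared with those of control liver. Members were genes on the array whose symbol begins with Psma, Psmb, Psmc, Psmd, Psme or Psmg, and each was represented by its brightest probe. There were 48 such genes, and 46 of them were among the 14311 genes tested. Psmb11, the form of the thymus cortex, was well above background on 0 arrays in either channel, and Psma8, the form of the testis, on 2 arrays in each channel, so neither was tested. Of the 46, 14 encode the 20S core, 17 the 19S cap, 4 the inducible immunoproteasome and its activator, 7 assembly chaperones and 2 other activators. The remaining 2, Psmc3ip and Psme3ip1, share only the prefix and encode no subunit.

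Each of 8 arrays of 2 colours held RNA of 1 HCC from a male miR-122 KO mouse, in Cy5, and RNA of liver from an age-matched male mouse with floxed miR-122, in Cy3, and the background of both was C57BL/6J and 129S/Svj mixed. The control alleles were floxed and the labels state no further treatment, and what deleted the gene in the KO mice is not given in the sources used here. No array had the dyes exchanged and no tumor-free KO liver was measured, so tumor, genotype and dye cannot be told apart. The labels call the 8 tumors biological replicates but do not say whether any shared a mouse, or how many animals gave the control RNA, so the p-values measure only the spread between these arrays.

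The proteasome degrades proteins that carry ubiquitin chains. A barrel of stacked alpha and beta rings cuts the substrate, and a cap with a base of ATPases and a lid recognises, unfolds and feeds it in. In liver, interferon makes cells replace the catalytic beta subunits by inducible ones, which changes the peptides made for antigen presentation, and the transcription factors NRF1 and NRF2 raise subunit genes when the proteasome is blocked or cells are under oxidative stress.

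Values below are log2 ratios of tumor over control, as mean ± SD over 8 arrays, so that 1 stands for a 2-fold difference. A gene was called higher or lower at an adjusted p under 0.05 (limma, Benjamini-Hochberg over all 14311 genes). The arrays had 38.5% to 51.9% of probes well above background in the tumor channel and 45.1% to 54.3% in the control channel, with the lowest tumor share on array 8. Array 8 also stood apart in skeletal muscle genes, of which 3 of 10 were tested. The log2 of their summed signal was 15.65 in its control channel, against 8.44 to 8.61 on the other arrays. In its tumor channel it was 11.54, against 8.77 to 9.06. The control channels of arrays 1 and 2 were the closest of all pairs of arrays (SD of the difference over genes 0.26, next pair 0.33), while their tumor channels differed with an SD of 0.73. The hepatocyte markers were well above background in both channels of every array for the 8 of 9 markers tested, and of those 0 rose and 6 fell in the tumors (median -0.74). Among all genes tested 28.7% rose and 25.1% fell. RNA of whole tissue was measured, so fewer cells of a type and less RNA per cell cannot be told apart.

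Promoter sequences of RefSeq (GRCm38.p6) matched 39 of the 46 members, as windows from 250 bases before to 50 after the start. Each was searched on both strands for TGACNNNGC, the core of the antioxidant response element, the core of the interferon-stimulated response element (GAAA, any 2 bases, GAAA), TTCNNNGAA, the gamma-activated site, and CCAAT. The shown members are those of the inducible class that rose, the core gene with the highest ratio and the member with the lowest, and were chosen after their values were seen. Their windows are printed 5′ to 3′ to 30 bases after the start, and capitals mark a match to any of these motifs on either strand.

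Psmb9, chr17:34187301-34187580, minus strand: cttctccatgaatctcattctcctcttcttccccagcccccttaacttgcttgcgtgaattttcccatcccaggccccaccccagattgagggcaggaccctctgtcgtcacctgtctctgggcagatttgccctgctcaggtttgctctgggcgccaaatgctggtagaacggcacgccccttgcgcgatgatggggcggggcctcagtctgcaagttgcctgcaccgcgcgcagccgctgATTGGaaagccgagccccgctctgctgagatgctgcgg

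Psme1, chr14:55578244-55578523, plus strand: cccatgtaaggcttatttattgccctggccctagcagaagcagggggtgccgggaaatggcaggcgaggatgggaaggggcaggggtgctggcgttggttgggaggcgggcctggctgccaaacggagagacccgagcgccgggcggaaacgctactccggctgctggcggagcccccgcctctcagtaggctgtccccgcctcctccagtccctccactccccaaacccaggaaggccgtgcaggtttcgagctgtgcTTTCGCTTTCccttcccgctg

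Psmb5, chr14:54617966-54618245, minus strand: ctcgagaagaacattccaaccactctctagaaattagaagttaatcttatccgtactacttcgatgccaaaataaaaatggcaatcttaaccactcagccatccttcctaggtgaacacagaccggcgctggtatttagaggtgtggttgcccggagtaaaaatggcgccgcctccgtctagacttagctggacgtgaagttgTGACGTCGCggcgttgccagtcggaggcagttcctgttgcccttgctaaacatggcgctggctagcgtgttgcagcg

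Psme4, chr11:30771525-30771804, plus strand: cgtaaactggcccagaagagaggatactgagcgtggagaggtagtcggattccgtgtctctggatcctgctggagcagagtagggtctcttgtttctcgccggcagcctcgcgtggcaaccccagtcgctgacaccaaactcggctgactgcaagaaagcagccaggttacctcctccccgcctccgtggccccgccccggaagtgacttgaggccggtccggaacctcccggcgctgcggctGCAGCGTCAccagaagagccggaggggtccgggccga

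Most proteasome genes differed little between tumor and liver, and more of them fell than rose. Of the 46 tested, 7 rose, or 15.2%, against 28.7% of all genes tested, and 15 fell, or 32.6%, against 25.1% of all genes. None changed by 2-fold: 0 members met the adjusted p with at least a 2-fold rise, against 9.54% of all genes, and 0 with at least a 2-fold fall, against 5.94%. The median over members was -0.17, and over all genes 0.03. The median absolute log2 ratio was 0.26 over members and 0.38 over all genes, and 38 of the 46 members had an absolute log2 ratio under 0.5. Without array 8, 9 members rose and 16 fell.

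The member ratios varied over arrays with SDs of 0.14 to 0.73 and a median SD of 0.27, against 0.37 over all genes. Ratios above 0 on all 8 arrays were found for 2 members (4.35%, all genes 17.1%), Psmd8 and Psmc3ip, and ratios below 0 on all 8 for 10 members (21.7%, all genes 16.6%). The 10 were Psma3, Psmb1, Psmc3, Psmd3, Psmd11, Psmd13, Psme4, Psmg1, Psmg3 and Psme3ip1. Of the 22 called members, 10 had at least 1 array of the opposite sign. All 22 kept their sign in the mean of each row of 4 arrays on the slide. The spread lay mostly in the tumor channel: its SD exceeded that of the control channel for 41 of 46 members, with median SDs of 0.25 and 0.13 on the log2 signal. The 5 exceptions were Psmb3, Psmb10, Psmc4, Psme1 and Psme4, of which 2 belong to the inducible set. The larger tumor spread was not particular to members. Over all genes, tumor channels also differed more than control channels for every pair of arrays but 5 and 6 (SD 0.39 for both).

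**Figure D1:**
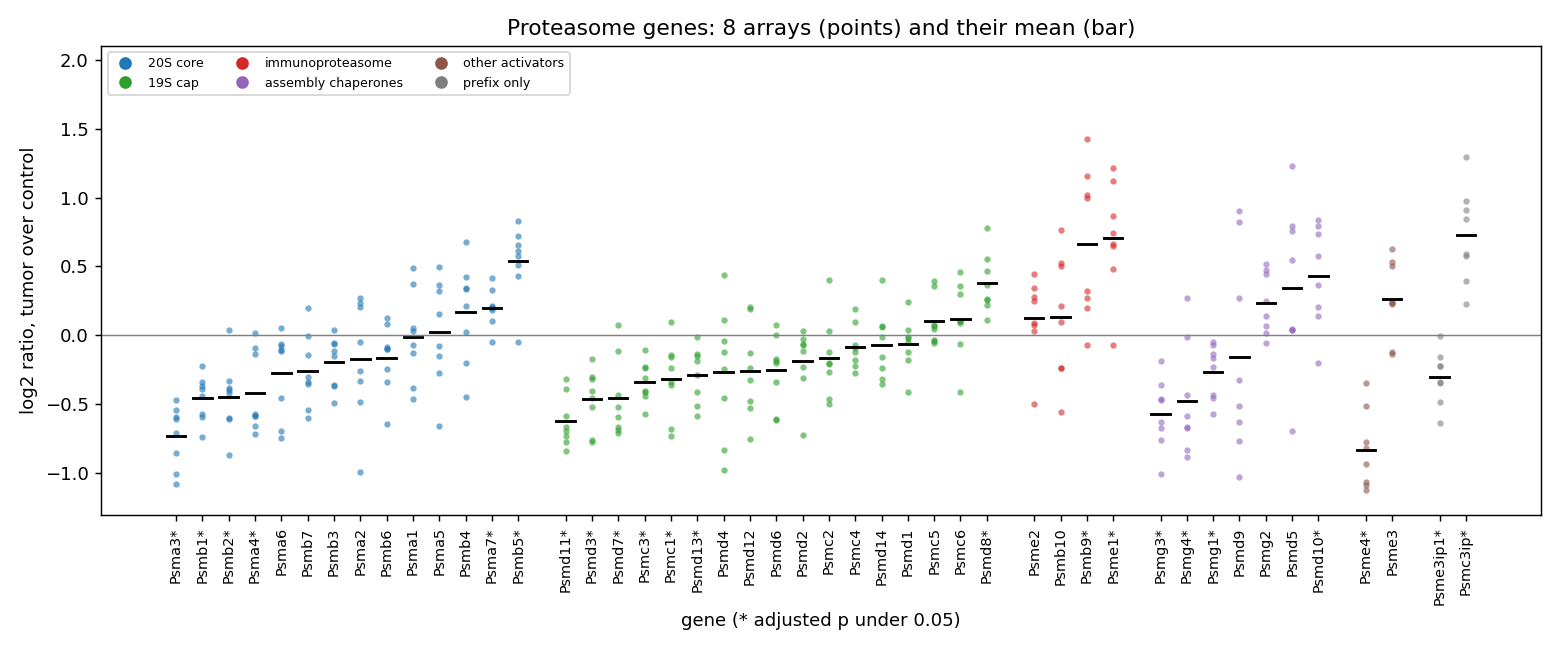
Log2 ratio of tumor over control of the 46 tested proteasome genes, grouped by class. Each point is 1 of 8 arrays, the bar is the mean and a star marks an adjusted p under 0.05. Bars lie between -0.83 (Psme4) and 0.73 (Psmc3ip), and no mean reaches 1 in either direction.

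In the 20S core, the proteolytic barrel, 2 of the 14 genes rose, 4 fell and 8 were not called (median -0.18). Among all genes tested 28.7% rose and 25.1% fell, and the counts of such small classes are descriptive only. On single arrays the core median ran from -0.50 on array 3 to 0.07 on array 7, with an SD of 0.18, and was below 0 on 7 arrays. The alpha ring, which gates the barrel, had 1 gene higher and 2 lower of 7 and a median of -0.17, and the beta ring, which holds the active sites, 1 higher and 2 lower of 7 and a median of -0.20. The median of the beta ring minus that of the alpha ring was -0.04 ± 0.31 over the arrays, above 0 on 4 and below 0 on 4.

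Psma3, an alpha ring subunit, was the core gene with the lowest ratio. Its log2 ratios had a lowest value of -1.08, a median of -0.66 and a highest of -0.47, so every tumor lay below its control. Psma3 fell by 0.73 on the log2 scale ± 0.22, or 1.66-fold, with an adjusted p of 0.00016 (limma). The channels did not overlap either: the tumor log2 signals lay at 13.42 to 13.96 and the control signals at 14.37 to 14.79. Psmb1, a beta subunit without proteolytic activity, had ratios from -0.74 through a median of -0.41 to -0.22, again all below 0. It fell by 0.46 ± 0.17 (limma adjusted p = 0.0011). Psmb2, another such beta subunit, had ratios from -0.87 through -0.41 to 0.04, with 1 array above 0, and fell by 0.45 ± 0.26 (limma adjusted p = 0.0046). Psma4, of the alpha ring, was the remaining gene that fell, at -0.42 ± 0.29 (limma adjusted p = 0.0091), and its second probe gave -0.61.

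Psmb5, which carries the chymotrypsin-like activity and is the target of the drug bortezomib, was the core gene with the highest ratio. Its ratios ran from -0.05 on array 3 through a median of 0.60 to 0.83, and the other 7 arrays were at 0.43 or above. Psmb5 rose by 0.54 ± 0.27 (limma adjusted p = 0.0017), or 1.45-fold. The call rests on the brighter of its probes: the other probe was at -0.01, and the mean of both was 0.26 with an adjusted p of 0.0455. Psma7, of the alpha ring, had ratios from -0.05 through 0.20 to 0.42 and a mean of 0.20 ± 0.14 (limma adjusted p = 0.0447). That call was lost under 12 of the 20 alternatives, among them leaving out array 1, 2, 4, 5, 6 or 7 (0.17 to 0.20) and the processed signals, which gave 0.06 (limma adjusted p = 0.623). Psmb4, a beta subunit without proteolytic activity, was next in rank at 0.17 ± 0.36, from -0.45 through 0.27 to 0.67, and was not called (limma adjusted p = 0.271). The other catalytic subunits were Psmb6 at -0.16 ± 0.25 (limma adjusted p = 0.183) and Psmb7 at -0.26 ± 0.27 (limma adjusted p = 0.0527), neither called; Psmb7 was called without array 7, at -0.33 (limma adjusted p = 0.0193). The other core genes, Psma1, Psma2, Psma5, Psma6 and Psmb3, had means from -0.27 to 0.02 and were not called, though Psma6 was without array 7 (-0.32).

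In the 19S cap 1 of the 17 genes rose, 6 fell and 10 were not called (median -0.25), while 28.7% of all genes rose and 25.1% fell. The cap median was lowest on array 3, at -0.41, and highest on array 7, at 0.09, and was below 0 on 7 arrays with an SD of 0.15. On single arrays the 2 classes lay close together: the core median minus the cap median was 0.01 ± 0.07, between -0.10 and 0.09. Within the cap, 0 of the 8 base genes rose and 2 fell (median -0.12), and 1 of the 8 lid genes rose and 4 fell (median -0.27). The base median exceeded the lid median on 8 of 8 arrays, by 0.16 ± 0.04.

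Psmd11, a scaffold subunit of the lid, was the lowest cap gene. Its ratios ran from -0.84 through a median of -0.68 to -0.32, all below 0, and it fell by 0.62 ± 0.18 (limma adjusted p = 0.000237), or 1.54-fold. Psmd3, also of the lid, ran from -0.77 through -0.43 to -0.17 and fell by 0.46 ± 0.21 (limma adjusted p = 0.0020). Psmd7, the partner of the deubiquitinase Psmd14 in the lid, ran from -0.70 through -0.56 to 0.07, with 1 array above 0, and fell by 0.45 ± 0.29 (limma adjusted p = 0.0055). Psmd14 itself, which cuts the ubiquitin chain from the substrate, was at -0.07 ± 0.25 and was not called (limma adjusted p = 0.585). Psmd13, the other lid gene that fell, was at -0.29 ± 0.20 (limma adjusted p = 0.0193) and lost the call with the processed signals, at -0.16.

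Psmd8, a further lid subunit, was the single cap gene that rose. Its ratios ran from 0.11 through 0.32 to 0.78, above 0 on all arrays, and its mean was 0.38 ± 0.21 (limma adjusted p = 0.0057). The direction within the lid therefore differed between named subunits: Psmd8 lay above 0 on every array and Psmd3, Psmd11 and Psmd13 below 0 on every array. Among the 6 ATPases of the base, Psmc3 fell by 0.34 ± 0.15 (limma adjusted p = 0.0044) and Psmc1 by 0.32 ± 0.28 (limma adjusted p = 0.0262). Both calls were lost on averaging the probes of each gene, at -0.18 and -0.24, and that of Psmc1 also without array 1, 2, 3 or 5 and with arrays 1 and 2 averaged (-0.32 to -0.26). After Psmd8, the highest cap genes were the ATPases Psmc6, at 0.12 ± 0.27 (-0.41 through 0.10 to 0.46), and Psmc5, at 0.10 ± 0.17 (-0.05 through 0.06 to 0.39), neither called (limma adjusted p = 0.361 and 0.310). Of the base scaffolds and the ubiquitin receptor Psmd4, Psmd1 was at -0.06 ± 0.19, Psmd2 at -0.19 ± 0.24 and Psmd4 at -0.27 ± 0.47, none of them called. Psmc2, Psmc4, Psmd6 and Psmd12 had means from -0.26 to -0.08 and were not called, though Psmd6 was without array 6 (-0.29) or 7 (-0.30), Psmc2 without array 7 (-0.25) and Psmd12 without array 8 (-0.32).

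The inducible subunits and their activator were the class with the highest median: 2 of the 4 genes rose, 0 fell and 2 were not called, and the median log2 ratio was 0.40. The shares over all genes were 28.7% higher and 25.1% lower. The class median was -0.28 on array 3 and at 0.18 or above on the other 7. On each array it exceeded the core median, by 0.21 to 0.78 (0.48 ± 0.20), and the cap median, by 0.13 to 0.72 (0.49 ± 0.21). The 4 genes did not share 1 pattern over the arrays, as their values show.

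**Figure D2:**
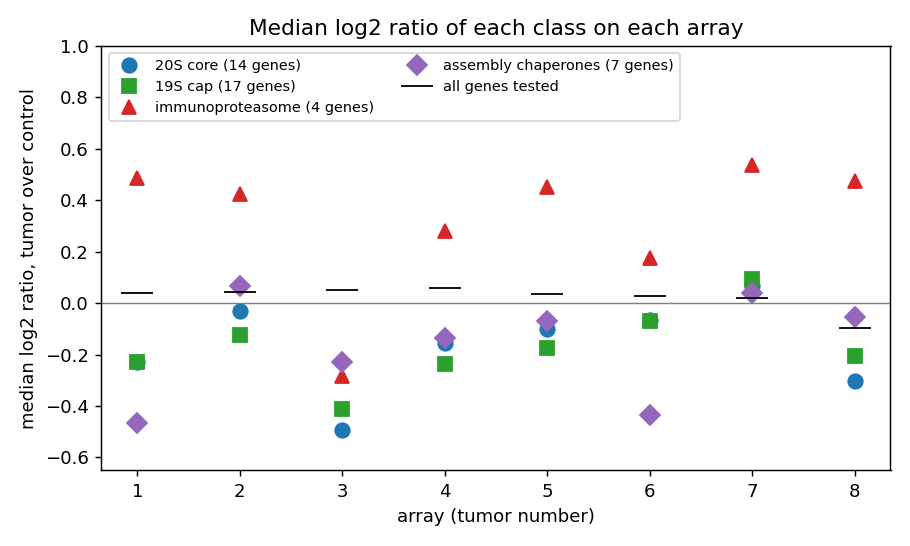
Median log2 ratio of tumor over control of the core, cap, immunoproteasome and assembly genes on each of 8 arrays. Black dashes are the median of all genes tested. Core and cap are lowest on array 3, at -0.50 and -0.41, and the immunoproteasome median lies above both on every array.

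Psmb9, the inducible counterpart of Psmb6, had log2 ratios of 0.27, 0.20, 1.00, 1.02, 1.42, 0.32, 1.16 and -0.07 on arrays 1 to 8. Arrays 3, 4, 5 and 7 were at 1.00 or above and arrays 1, 2, 6 and 8 at 0.32 or below, with none between. Psmb9 rose by 0.66 ± 0.55, or 1.59-fold (limma adjusted p = 0.0099), was above 0 on 7 of 8 arrays, and had means of 0.62 and 0.71 in the rows of the slide. Without array 8 its mean was 0.77 (limma adjusted p = 0.0044). On 7 arrays its tumor signal lay at 12.78 to 13.20, and on array 8 at 11.24, while the control signal ran from 11.31 to 12.70. The control signals of arrays 1, 2 and 6, with low ratios, were at 12.62, 12.64 and 12.70, and those of arrays 3, 4, 5 and 7, with high ratios, at 11.62 to 12.20. Among arrays 1 to 7, the high ratios thus came with the lower control signals.

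Psme1, the alpha subunit of the interferon-inducible activator that opens the core gate, had log2 ratios of 1.12, 1.22, -0.07, 0.48, 0.65, 0.75, 0.86 and 0.67 on arrays 1 to 8. All arrays but array 3 were at 0.48 or above. Psme1 rose by 0.71 ± 0.40, or 1.63-fold (limma adjusted p = 0.0018), with means of 0.69 and 0.73 in the rows of the slide. Its tumor signals lay at 13.87 to 14.49 and its control signals at 13.19 to 13.94, so the channels overlapped only through array 3, which had the lowest tumor and the highest control signal.

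Psmb10, the inducible counterpart of Psmb7, had log2 ratios of 0.53, 0.50, -0.56, -0.23, 0.10, -0.24, 0.21 and 0.76 on arrays 1 to 8. Arrays 3, 4 and 6 were below 0 and the rest above, and the mean of 0.13 ± 0.45 was not called (limma adjusted p = 0.473). Psmb10 varied more in the control channel than in the tumor channel, with SDs of 0.39 and 0.20. Psme2, the beta subunit of the same activator as Psme1, had log2 ratios of 0.45, 0.35, -0.49, 0.08, 0.25, 0.03, 0.09 and 0.28. It lay above 0 on all arrays but array 3, and the mean of 0.13 ± 0.29 was not called (limma adjusted p = 0.329). The second probe of Psme2 was at 0.59, and the mean of both probes, 0.36, was called (limma adjusted p = 0.0088).

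**Figure D3:**
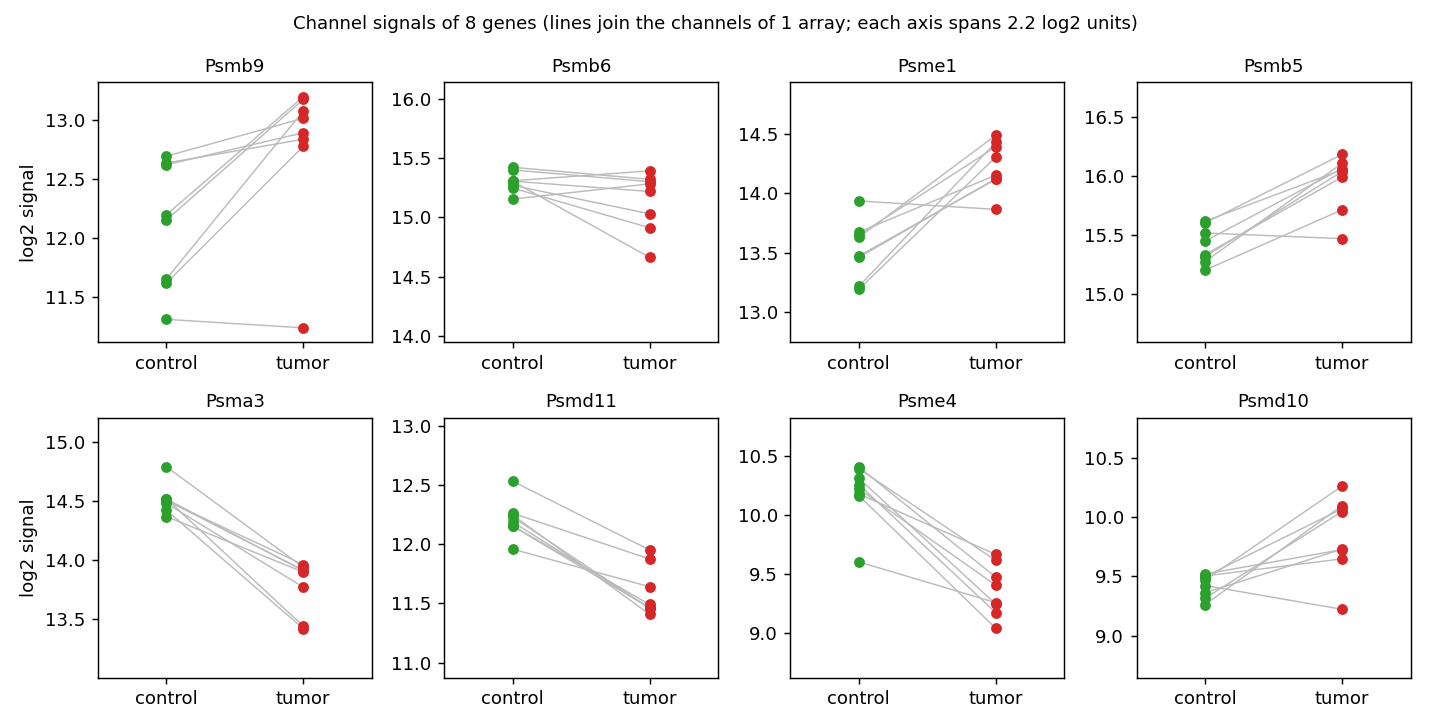
Log2 signal of 8 genes in the control and tumor channels, with a line joining the channels of each of 8 arrays; the genes were chosen after their values were seen, and each axis spans the same range. The control signals of Psmb9 run from 11.31 to 12.70, those of Psma3 from 14.37 to 14.79.

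Each inducible subunit was set against its constitutive relative on the same array, by exact permutation tests with sign flips over 8 arrays (two-sided, smallest possible p 0.0078), adjusted by Benjamini-Hochberg over 4 pairs. The Psmb9 ratio exceeded that of Psmb6 on 8 of 8 arrays, by 0.83 ± 0.56 (0.03 to 1.64, median 0.81), with an exact p of 0.0078 and an adjusted p of 0.0312. The excess was 0.95 and 0.70 in the rows of the slide. The Psmb10 ratio exceeded that of Psmb7 on 7 of 8 arrays, by 0.39 ± 0.51 (-0.02 to 1.36, median 0.10), with an exact p of 0.0234 and an adjusted p of 0.0469. The mean excess was 0.39 in each row, but it was uneven within the rows. In one row it was largest on array 8, at 1.36, where Psmb10 was at 0.76 and Psmb7 at -0.60. In the other row it was largest on arrays 1 and 2, with Psmb10 at 0.53 and 0.50 and Psmb7 at -0.35 and -0.15. With 7 arrays the exact p cannot go below 0.0156: both calls were lost when any array but array 3 was left out, or arrays 1 and 2 were averaged (adjusted exact p of up to 0.0625 for Psmb9 and 0.0938 for Psmb10). Without array 8 the excess of Psmb10 was 0.26.

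The activator genes were set against Psme3, the constitutive and nuclear member of that family, which was itself at 0.26 ± 0.28 and not called (limma adjusted p = 0.0577), but was called at 0.32 without array 1 or array 2 (limma adjusted p = 0.0329 and 0.0363). The Psme1 ratio exceeded it on 7 of 8 arrays, by 0.44 ± 0.57 (exact p = 0.0469, adjusted p = 0.0625), which missed the threshold. It passed without array 3, at 0.55 (adjusted exact p = 0.0208). With each array left out in turn, the excess ran from 0.32 to 0.55 and the adjusted exact p from 0.0208 to 0.125. The excess was 0.63 in one row and 0.26 in the other. Psme2 minus Psme3 was -0.14 ± 0.47, above 0 on 3 of 8 arrays (exact p = 0.430, adjusted p = 0.430).

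Whether members moved together over the arrays was examined for 6 relations. Psmb9 enters 4 of them, with Psmb10, Psme2, Psmb5 and Tap1, and since its ratios fall into separate sets of 4 arrays each, no correlation is given. For Tap1, the peptide transporter gene beside Psmb9 on chromosome 17, the values stand side by side: its ratios were 0.78 to 1.20 on arrays 3, 4, 5 and 7, and 0.22 to 0.41 on arrays 1, 2, 6 and 8, so the same arrays were high for both genes. Tap1 rose by 0.66 ± 0.39 (limma adjusted p = 0.0024). The ratios of Psmb10, Psme2 and Psmb5 overlapped between these sets of arrays. On arrays 3, 4, 5 and 7 they ran from -0.56 to 0.21, -0.49 to 0.25 and -0.05 to 0.83. On arrays 1, 2, 6 and 8 they ran from -0.24 to 0.76, 0.03 to 0.45 and 0.43 to 0.72. Psme1 and Psme2 correlated over 8 arrays (Pearson r = 0.884, exact permutation p = 0.0081, adjusted p = 0.0242; Spearman rho = 0.714, exact permutation p = 0.0576, adjusted p = 0.173). Without arrays 2 and 3, r was 0.585, and in the rows of the slide 0.966 and -0.740. Without array 3 alone r was 0.652, the lowest value with any single array left out, so r depended most on array 3. The call was lost without array 3 and also without array 2 (r = 0.891). Psmb5 of the core and Psmd1 of the cap had r = 0.850 (exact permutation p = 0.0129, adjusted p = 0.0259) and rho = 0.595 (exact permutation p = 0.132, adjusted p = 0.256). Without arrays 3 and 7, r was 0.044, so this relation rests on those arrays; in the rows it was 0.992 and 0.550.

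**Figure D4:**
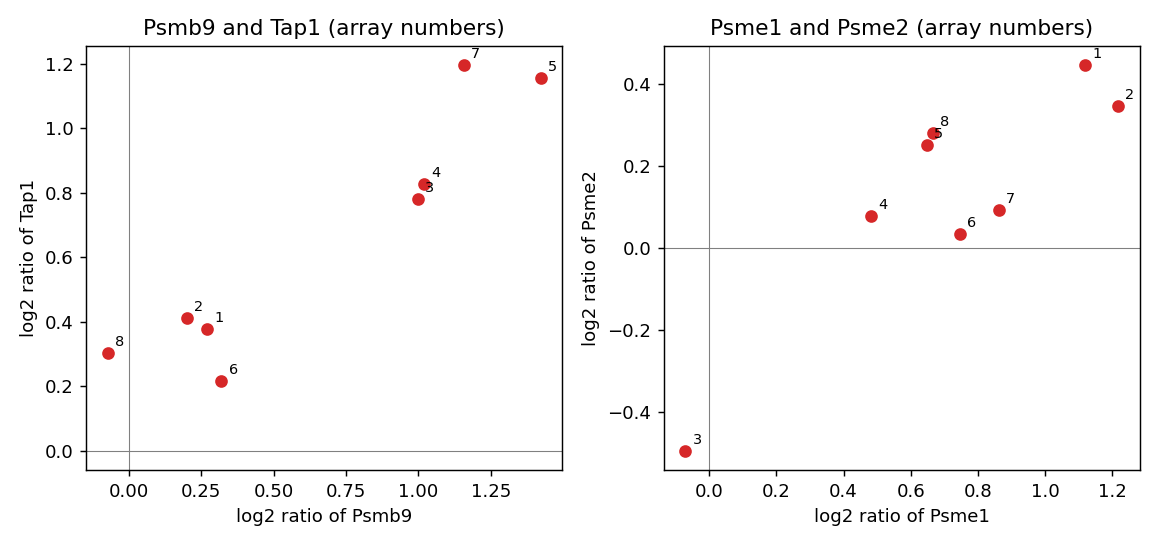
Log2 ratios of Psmb9 against Tap1 and of Psme1 against Psme2, with each point labelled by its array; these plots were chosen from 6 relations after their values were seen. Arrays 3, 4, 5 and 7 are high for both Psmb9 and Tap1, and array 3 is lowest for both Psme1 and Psme2.

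Of the promoter windows printed above, that of Psmb9 holds 1 match, CCAAT on the minus strand. Its start lies 226 bases from that of Tap1, which is read the other way, and the windows of these neighbours share 275 bases. The Psme1 window holds the interferon-stimulated core on the minus strand at bases 10 to 19 after the start, and the windows of Psmb5 and Psme4 hold TGACNNNGC. Of the members with a window, TGACNNNGC was found in 6 (15.4%, all 27025 genes 14.0%): Psmb5, Psmb6, Psmc6, Psmd9, Psmd12 and Psme4. Those 6 had mean ratios in both directions, from -0.83 for Psme4 to 0.54 for Psmb5. The interferon-stimulated core was found in 5 (12.8%, all genes 3.99%): Psmb3, Psmd4, Psmd9, Psme1 and Psmg4, of which Psme1 rose, Psmg4 fell and the rest were not called. TTCNNNGAA was found in 2 (5.13%, all genes 9.55%), Psmd2 and Psmg1, and CCAAT in 15 (38.5%, all genes 41.1%).

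Psme4, the large nuclear activator known for its part in the loss of histones, was the lowest of all members. Its ratios ran from -1.12 through a median of -0.87 to -0.34, all below 0, and it fell by 0.83 ± 0.28, or 1.78-fold (limma adjusted p = 0.00017). The means were -0.87 and -0.80 in the rows of the slide, and the second probe gave -0.55. The activator genes therefore differed in direction: the inducible Psme1 rose and the nuclear Psme4 fell. Between them lay the inducible Psme2, at 0.13, and the nuclear Psme3, at 0.26, neither called.

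Of the 7 assembly chaperones 1 rose, 3 fell and 3 were not called (median -0.16, and -0.29 without array 7 or -0.03 without array 1). For all genes the shares were 28.7% higher and 25.1% lower. Psmg1 to Psmg4, which build the core, had 0 higher and 3 lower and a median of -0.37, and the base chaperones Psmd5, Psmd9 and Psmd10 had 1 higher and 0 lower and a median of 0.34. Psmg3 ran from -1.004 through -0.55 to -0.18, all below 0, and fell by 0.57 ± 0.26 (limma adjusted p = 0.0011). Psmg4, its partner, ran from -0.88 through -0.63 to 0.27, with 1 array above 0, and fell by 0.48 ± 0.41 (limma adjusted p = 0.015). Psmg1 ran from -0.57 through -0.20 to -0.04 and fell by 0.26 ± 0.20 (limma adjusted p = 0.0264); its call was lost without array 1 (-0.22) or array 6 (-0.24), with the processed signals (-0.11) and with the mean of its probes (-0.22). Psmg2, the partner of Psmg1, ran from -0.06 through 0.20 to 0.52, with a mean of 0.23 ± 0.22 that was not called (limma adjusted p = 0.0543); it was called without array 8, at 0.27 (limma adjusted p = 0.0299), and with the processed signals, at 0.39 (limma adjusted p = 0.0111).

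Psmd10, known as gankyrin and as an oncoprotein of liver cancer, was the base chaperone that rose. Its ratios ran from -0.20 on array 3 through 0.47 to 0.84, above 0 on 7 arrays, and the mean was 0.43 ± 0.37, or 1.35-fold (limma adjusted p = 0.0164). The second probe gave 0.83, and with the processed signals the call was lost, at 0.30. Psmd9 had the largest spread of all members: its ratios were -1.03, 0.27, -0.63, -0.32, -0.77, -0.51, 0.82 and 0.90 on arrays 1 to 8, so 3 tumors were above and 5 below their controls. The mean of Psmd9, -0.16 ± 0.73, was not called (limma adjusted p = 0.584). Psmd5 had the next largest spread, with ratios of 0.05, 0.76, 0.55, 1.23, 0.79, 0.04, 0.04 and -0.69, and a mean of 0.34 ± 0.60 that was not called (limma adjusted p = 0.154). Psmd5 was called without array 8, the lowest, at 0.49 (limma adjusted p = 0.0271), and with array weights, at 0.56 (limma adjusted p = 0.0174). For both genes the spread lay in the tumors: the SD of the log2 signal was 0.80 in tumors and 0.29 in controls for Psmd9, and 0.49 and 0.18 for Psmd5.

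The genes that share only the prefix were called in opposite directions. Psmc3ip, a factor of meiotic recombination, rose by 0.73 ± 0.35 (limma adjusted p = 0.00085), with ratios from 0.23 through 0.72 to 1.30. It was the only tested member not well above background on every array, with 7 arrays in each channel, and its ratio depended on the background correction, at 1.04 with a smaller offset and 1.79 with the processed signals. Psme3ip1, which binds Psme3, fell by 0.30 ± 0.20 (limma adjusted p = 0.0145), with ratios from -0.64 through -0.28 to -0.01.

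Among 21 cofactors of the proteasome and ubiquitin genes, 4 rose and 6 fell (median -0.13), while 28.7% of all genes rose and 25.1% fell. The ubiquitin carrier Ubqln2 rose by 1.73 ± 0.89 (limma adjusted p = 0.00065), the ubiquitin fusion gene Rps27a by 0.57 ± 0.31 (limma adjusted p = 0.0021), and the proteasome inhibitor Psmf1 fell by 0.56 ± 0.35 (limma adjusted p = 0.0037), as did the ubiquitin carrier Rad23b by 0.52 ± 0.26 (limma adjusted p = 0.0020). Pomp, which matures the core, was at -0.23 ± 0.26 and not called (limma adjusted p = 0.0770).

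Of 9 regulators of the subunit genes 4 rose and 2 fell (median 0.39), while 28.7% of all genes rose and 25.1% fell. Nfe2l1 and Nfe2l2, which encode NRF1 and NRF2, were at 0.14 ± 0.31 and 0.45 ± 1.24, neither called (limma adjusted p = 0.305 and 0.337). Nfe2l2 was at -2.32 on array 8 and above 0 on the other 7, at 0.13 to 1.55. The NRF1 and NRF2 partners Maff, Mafk and Mafg rose by 1.42 ± 1.00, 0.58 ± 0.42 and 0.50 ± 0.23, and Ddi2, the protease that activates NRF1, fell by 1.05 ± 0.56 (limma adjusted p = 0.0035, 0.0062, 0.0016 and 0.00094). Of 6 targets of NRF2 outside the proteasome 4 rose and 0 fell (median 0.88): Srxn1 rose by 2.11 ± 0.68, Nqo1 by 1.64 ± 0.32, Gclc by 1.27 ± 1.09 and Txnrd1 by 0.50 ± 0.47. Gclm and Hmox1 were at 0.30 ± 0.54 and 0.08 ± 0.90, neither called. A relation of these genes to the ratios of the core and cap was not tested.

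Of 11 tested genes of interferon signalling and peptide presentation 6 rose and 1, the peptide trimmer Erap1, fell (median 0.50). The shares over all genes were 28.7% higher and 25.1% lower. The receptor genes Ifngr1 and Ifngr2 rose by 1.45 ± 0.55 and 0.86 ± 0.61 (limma adjusted p = 0.00014 and 0.0043), and the peptide loading genes Tap2 and Tapbp by 0.72 ± 0.37 and 0.68 ± 0.20 (limma adjusted p = 0.0012 and 0.00017). Irf1, a transcription factor of the interferon response, was at -0.05 ± 0.43 and not called (limma adjusted p = 0.781).

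Markers of leukocytes, which hold much inducible proteasome, were set beside the inducible genes array by array. Of 15 tested markers of 18, 7 rose and 0 fell (median 0.33), and the array medians ran from -0.26 on array 8 to 1.42 on array 5, the arrays on which Psmb9 was lowest, at -0.07, and highest, at 1.42. The arrays between followed that order only in part. Array 4 had the next highest leukocyte median, 0.90, and a Psmb9 ratio of 1.02. Array 7 had the next lowest leukocyte median, 0.31, and the next highest Psmb9 ratio, 1.16. Arrays 1 and 3 had leukocyte medians of 0.86 and 0.48 and Psmb9 ratios of 0.27 and 1.00. Psmb10 was highest, at 0.76, on array 8, where the leukocyte median was lowest. Psme1 was highest, at 1.22, on array 2, with a leukocyte median of 0.66. The log2 of the summed signal of the markers was 14.28 to 15.85 in tumors and 14.44 to 15.03 in controls. The pan-leukocyte marker Ptprc was well above background on all 8 arrays in both channels. Of the 6 Kupffer cell markers 1 rose and 5 fell (median -2.49), of the 6 bile duct markers 5 rose, of the 6 stellate cell markers 3 rose and 1 fell, and of the 6 endothelial markers 0 rose and 3 fell. Beside these marker counts, 28.7% of all genes rose and 25.1% fell. The part of these cells in the proteasome ratios was not tested.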

How the data were processed

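RNA of 8 tumors (Cy5) and of control liver (Cy3) was measured on 8 Agilent arrays of 2 colours. The files deposited by the authors are scanner output with a median signal and a median background per spot, as intensity; the processed signals, also intensity, were background-subtracted and dye-normalized per the file headers. The deposited log10 ratios were not used. Agilent Feature Extraction 10.9 is named in the submitters' processing notes (10.9.1.1 per the file headers).

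From the deposited intensities, median signals were corrected by normexp (offset 50), normalized by loess within arrays and turned into log2 ratios (R 4.3.3, limma 3.58.1). Each array held 59305 experimental spots, 0 of them saturated. Of 55681 probes, 26582 took a symbol by accession from the RefSeq annotation of GRCm38.p6, a later build than that of the array design. A probe was tested where 4 or more arrays had it well above background in either channel, and the brightest tested probe stood for its gene. The mean ratio was tested against 0 with lmFit and eBayes over 14311 genes, with Benjamini-Hochberg adjustment. Channel signals are those after loess and Aquantile normalization. Of 11 members with 2 tested probes, 10 had the same sign in both (Psmb5 did not), and Psmb5, Psmd9 and Psme2 differed by over 0.4. The number of arrays limits the precision.

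Members and lists were chosen with earlier results of these data known. Named in full are the inducible genes, the 3 highest and 3 lowest of the core, cap and assembly classes and the 3 with the largest SD; of other lists, the 4 called genes with the largest ratios, and Nfe2l1, Nfe2l2, Irf1, Tap1 and Pomp. Others were chosen after their values were seen. Classes are described by counts and medians, without a test. Alternatives were an offset of 16, no background subtraction, processed signals, median centring or scaling of arrays, stricter and no filters, the mean of probes, another variance model, array weights, a term for the slide's row, arrays 1 and 2 averaged, and each array left out. On simulated data of 14311 genes for the comparison of tumor with control, 26 of 67 genes shifted by 0.5, 52 of 67 shifted by 1 and 65 of 66 shifted by 2 were called, with 6 false calls among 14111. Far fewer genes were shifted there than were called in the data (28.7% higher and 25.1% lower). The adjusted threshold was therefore stricter in the simulation, and its rates do not carry over to the calls made here. A planned comparison of protein sequences was not run, as no protein sequences were used here, and 1 gene of the prefix and 1 of the interferon list are not reported here.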

Additional observations from a re-analysis of the deposited data

Results flagged for a closer look

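Single arrays lay far from the other 7 in 4 of 54 results examined, where chance gives about 1 in 20. Array 3 was the low one for Psmb5, at a log2 ratio of -0.048, for Psme2, at -0.49, and for the immunoproteasome median, at -0.28. Array 8 was the low one for Psmd2, a base subunit of the cap, at -0.72, with the next array at -0.31.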

How the results depend on the processing

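Of the 22 called members, 16 kept direction and call under all 20 alternatives, 6 (Psma7, Psmc1, Psmc3, Psmd10, Psmd13 and Psmg1) lost the call under at least 1, and 0 reversed. The members called higher numbered 5 to 10 and those called lower 14 to 19 over the alternatives that kept all arrays, and 6 to 9 and 13 to 19 when each array was left out. A 2-fold rise was called for 1 member with an offset of 16 and for 1 with the processed signals, Psmc3ip. The class medians kept their sign and moved by less than 1 SD of the array medians, but that of the assembly chaperones, -0.16, ran from -0.29 without array 7 to -0.03 without array 1, and that of the core, -0.18, was -0.30 with the processed signals. Of the 24 members not called, 11 were called under at least 1 alternative: Psma6, Psmb3, Psmb7, Psmc2, Psmd2, Psmd5, Psmd6, Psmd12, Psme2, Psme3 and Psmg2. With the processed signals, Psme1 minus Psme3 was 0.58 and passed the threshold. Reversed values were those of Psme2 minus Psme3 (0.13 with the processed signals, 0.10 with the mean of probes), Psma1 (0.014 with the processed signals, 0.0022 with array weights), Psma5 (-0.084), Psmb4 (-0.020) and Psmd1 (0.0013) with the processed signals, and Psmb10 (-0.0034) with array weights; the cause was not tested. Leaving out each array gave -0.082 to 0.053 for Psma1 and -0.044 to 0.12 for Psma5.

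With arrays 1 and 2 averaged, which leaves fewer values, calls were lost for Psmb9 minus Psmb6 (0.88), Psmb10 minus Psmb7 (0.34), Psme1 with Psme2 (r = 0.879) and Psmb5 with Psmd1 (r = 0.846). The last was also lost with an offset of 16 (r = 0.854), the processed signals (r = 0.855) and the mean of probes (r = 0.771). Leaving out each array gave 0.71 to 0.94 for Psmb9 minus Psmb6, 0.26 to 0.45 for Psmb10 minus Psmb7, 0.32 to 0.55 for Psme1 minus Psme3, r = 0.652 to 0.914 for Psme1 with Psme2, and r = 0.612 to 0.942 for Psmb5 with Psmd1. The relations of Psmb9 were not recomputed, as no correlation is reported for them. Each ratio already sets 1 tumor against the control RNA on the same array, so the tests are paired within arrays. All arrays form 1 group, and no further pairing was applied.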
